A study of Zea mays with 24 samples.

Results

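Unstressed leaves of the maize inbred lines W22 and DH4866 were compared by RNA-seq. The comparison used the wild-type libraries titled as controls of either line, 2 of W22 and 2 of DH4866, out of 24 libraries in the series. All 4 were labelled as leaf at the V4 stage, the seedling stage with 4 collared leaves, under normal conditions. The series also holds drought-stressed leaves of the same lines, a zmnf-ya1 mutant in W22, plants labelled ZmNF-YA1 OE in DH4866, and B104 with its ZmNF-YB16 OE line. ZmNF-YA1 is a subunit of nuclear factor Y, a trimeric transcription factor that binds CCAAT boxes, and the zmnf-ya1 mutant carries a transposon insertion in it. Each line is an inbred, and no source used here says that W22 and DH4866 plants were grown or harvested together. Line, growth and harvest therefore cannot be told apart in this comparison. Counts of both lines are given for gene models of B73, so a difference in sequence from B73 can move a count as a difference in transcript level does.

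Maize inbreds descend from distinct breeding pools and differ in sequence, in gene content and in the level of many transcripts. Families known for such variation include NBS-LRR proteins, which are intracellular immune receptors, receptor-like kinases, and enzymes of specialised metabolism such as cytochrome P450s and glycosyltransferases. Young maize leaves also carry pathways that respond to nutrition and time of day. Among them are phosphate and iron uptake, nitrate assimilation, benzoxazinoid defence and the circadian clock.

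The W22 libraries held 20890291 and 20863136 expected counts, and the DH4866 libraries held 20959878 and 21029574. Replicates differed by a root mean square of 0.487 on the log2 scale in W22 and 0.484 in DH4866, and W22 and DH4866 libraries differed by 0.884 to 0.909. Within a background, zmnf-ya1 and W22 libraries under normal conditions differed by 0.93 to 1.01, and ZmNF-YA1 OE and DH4866 libraries by 0.607 to 0.627. W22 libraries thus lay further from those of their own mutant than from DH4866. Levels are given as normalized CPM, counts scaled by TMM to a library of 1000000, with n = 2 libraries of each line throughout. Mesophyll and bundle-sheath markers, which define the C4 leaf, were present at similar sums. Mesophyll markers held 51400 and 50900 CPM in W22 leaves, against 53800 and 53200 CPM in DH4866 leaves. Bundle-sheath markers held 17200 and 16500 CPM in W22 leaves, against 16300 and 15700 CPM in DH4866 leaves. None of these 11 genes differed by more than 2-fold. Markers of the dividing leaf base held 148 and 163 CPM in W22 leaves, against 158 and 158 CPM in DH4866 leaves. Of the 13 tested, 1 was higher and 1 lower. Most are described as histone H4, so this sum is mainly of histone H4 transcripts. Seed markers held 41.7 and 39.9 CPM in W22 leaves, against 62.4 and 60.8 CPM in DH4866 leaves, with 3 of 15 at 0 in all 4 libraries. Most of this sum was 1 gene, the zein protein-body membrane protein gene GRMZM2G094532, with 36.8 and 36.1 CPM in W22 leaves against 57.7 and 56.6 CPM in DH4866 leaves. Of the 6 seed markers tested 0 were higher and 2 lower, both under 1 CPM in every library. Anther and pollen markers held 107 and 109 CPM in W22 leaves, against 91.7 and 90.3 CPM in DH4866 leaves, with 9 of 37 at 0. This class was found by description and includes polygalacturonase inhibitor genes, so its sum does not measure anther or pollen transcripts alone. In bulk leaf, fewer cells of a type and less RNA per cell cannot be told apart.

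Few genes followed the line labels across the 16 libraries of both backgrounds. No gene had at least 20 counts in all 8 libraries of the W22 background and at most 3 in all 8 of the DH4866 background, and none the other way round. By the same rule 220 genes were on in the W22 background and off in the B104 background, and 51 were on in B104 and off in W22. For DH4866 and B104 these numbers were 234 and 57. The B104 libraries were shallower, with 3429339 to 5608984 counts. The paper describes them as ear leaves taken after pollination from plants in trial plots, with RNA isolated by another method. The numbers against B104 therefore mix line with stage, growth and method. Of the 25436 genes tested, 216 were higher in all 8 W22-background libraries than in any of the 8 DH4866-background libraries. The other way round there were 128. A 2-fold rule asked for more than 2-fold between the backgrounds after a small offset was added to the lower one. By it, 0 genes separated the 16 libraries in either direction. Within normal conditions, 142 genes were higher by the 2-fold rule in all 4 W22-background libraries and 120 in all 4 DH4866-background libraries. Within drought these numbers were 194 and 275. By the 2-fold rule only 1 gene was higher in the W22 background under both conditions and 0 in the DH4866 background. In opposite directions under the 2 conditions, 14 and 7 genes separated the backgrounds. Under normal conditions ZmNF-YA1 itself had 5.52 and 6.09 CPM in zmnf-ya1 leaves, against 12.6 and 13.4 CPM in W22 leaves. In the normal libraries labelled ZmNF-YA1 OE it had 12.1 and 11.1 CPM, against 10.8 and 10.9 CPM in DH4866. Under drought it had 5.53 and 5.13 CPM in zmnf-ya1 leaves, against 6.01 and 7.13 CPM in W22 leaves. ZmNF-YA1 OE leaves under drought had 6.01 and 6.16 CPM, against 6.65 and 6.83 CPM in DH4866 leaves. The level of ZmNF-YA1 thus followed the mutant label clearly in normal leaves alone, and the OE label in neither condition. In the paper a stress-responsive promoter drives the transgene, and the OE lines had raised ZmNF-YA1 transcript levels under osmotic stress. The paper also reports that its mutant lines had no ZmNF-YA1 transcripts. With these values, the labels of some libraries may be wrong, which was not tested and would change what each value of W22 over DH4866 compares. The results are given under the labels as deposited, and "W22" and "DH4866" stand for the libraries so labelled.

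DEGs were called in edgeR's quasi-likelihood test where the lines differed by more than 1 on the log2 scale at an adjusted P below 0.05, with Benjamini-Hochberg adjustment over all 25436 genes tested. There were 2150 DEGs, or 8.45% of the genes tested. Of these, 939 were higher in W22 leaves, which is 3.69% of the genes tested, and 1211 were lower, which is 4.76%. Most differences were small. The log2 fold change of W22 over DH4866 lay within 1 for 87.4% of genes, and its median was 0.00 with quartiles of -0.31 and 0.28. Among the DEGs, 610 higher and 695 lower genes differed by a log2 fold change of 1 to 2, and 174 higher and 295 lower genes by more than 3. DEGs were fewer among well-expressed genes, at 343 of 9679 genes with a mean of at least 10 CPM (3.54%). Among genes with at least 100 CPM there were 50 DEGs of 1264 (3.96%).

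**Figure D1:**
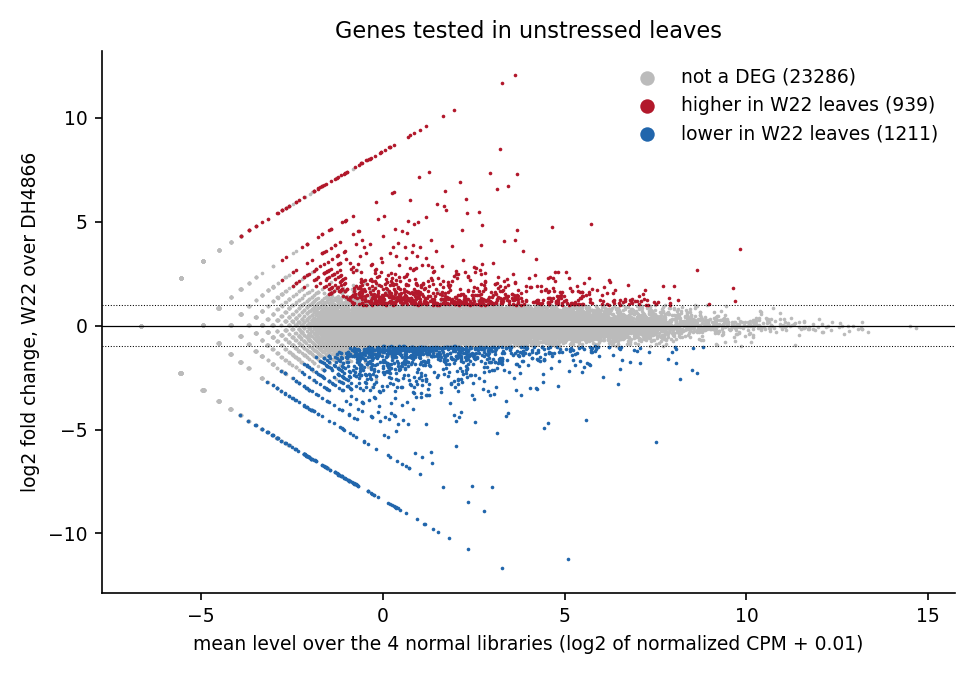
Each point is 1 of the 25436 genes tested, with the log2 of its mean normalized CPM over the 4 libraries on the x axis and its log2 fold change of W22 over DH4866 on the y axis. Red points are the 939 DEGs higher in W22 leaves and blue points the 1211 lower, and most of the large differences lie at low levels.

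DEGs were counted in 43 gene lists built from the deposited descriptions. No test of a list was made, and each count is read against the 3.69% higher and 4.76% lower of all genes. The shares of DEGs among tested members were 37.5% for ethylene genes, 28.6% for phosphate starvation genes, 26.3% for NBS-LRR genes and 25% for benzoxazinoid genes. These lists hold 16, 14, 38 and 16 tested members, so 1 gene moves a share by several percent. edgeR, DESeq2 and limma each gave 0 DEGs of 17 circadian clock genes and 0 of 12 Calvin cycle genes, of which 5 were higher and 0 lower at an adjusted P below 0.05 in edgeR with no fold limit. There was 1 DEG of 73 WRKY transcription factors. Without W22 replicate 1 the WRKY list held 3 higher and 2 lower DEGs.

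**Figure D2:**
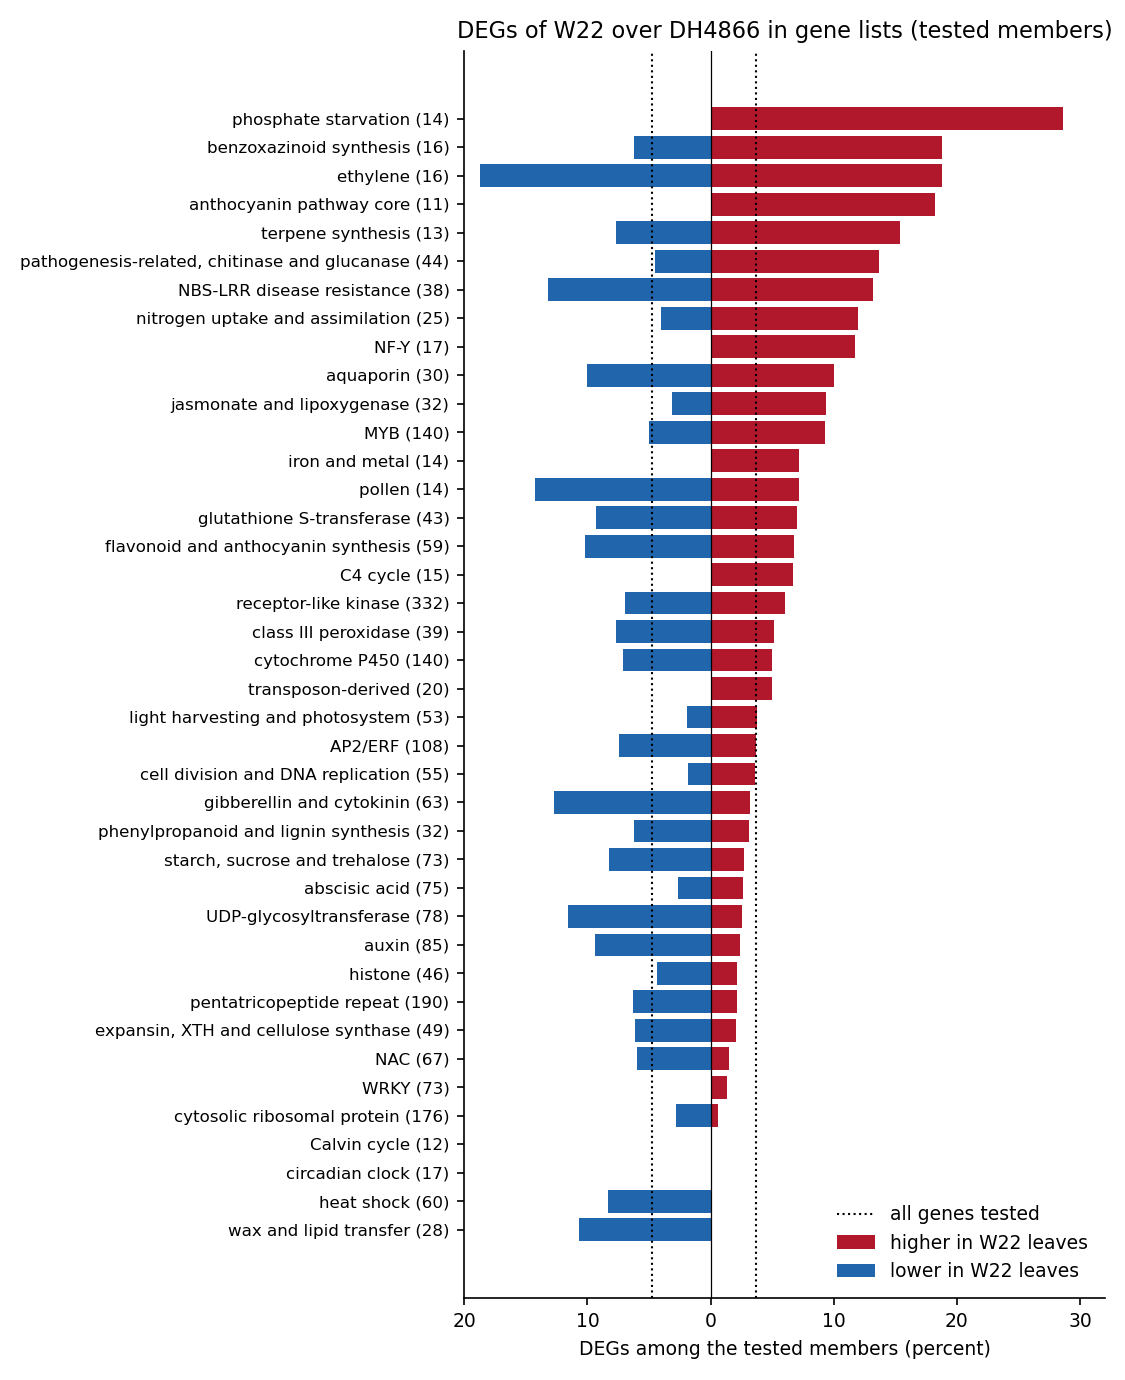
Bars give the percent of tested members that were DEGs in each of the 40 gene lists with at least 10 tested members, to the right for higher and to the left for lower in W22 leaves, with the number of tested members in parentheses and dotted lines at 3.69% and 4.76% for all genes. Phosphate starvation genes were only higher and heat shock and wax genes only lower, while the clock and Calvin cycle lists held 0 DEGs.

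Several genes of nutrient uptake and assimilation differed between the lines. Of 14 phosphate starvation genes, 4 were higher in W22 leaves and 0 lower, with a median log2 fold change of 0.36. Inorganic phosphate transporter 3 (GRMZM2G112377) had 83.6 and 84.0 CPM in W22 leaves, against 17.6 and 16.9 CPM in DH4866 leaves. Its log2 fold change was 2.28 ± 0.07 (SE, adjusted P = 1.9e-14). SPX proteins sense inositol pyrophosphates and restrain the phosphate starvation response, and their transcripts rise when phosphate is scarce. A pair of SPX domain-containing protein 1-like genes were higher in W22 leaves. GRMZM2G035579 had 151 and 164 CPM in W22 leaves, against 62.1 and 72.1 CPM in DH4866 leaves, and GRMZM2G083655 had 130 and 129 CPM against 56.5 and 54.2 CPM. Both differed by a log2 fold change of 1.23 ± 0.06. In iron nutrition, ys1 (GRMZM2G156599), the transporter that takes up iron bound to phytosiderophores, had 26.9 and 26.5 CPM in W22 leaves, against 2.56 and 1.94 CPM in DH4866 leaves. Its log2 fold change was 3.57 ± 0.12 (adjusted P = 1.8e-13), and it was the only DEG of 14 iron and metal genes.

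Nitrogen genes moved in both directions, with 3 higher and 1 lower of 25 and a median of 0.01. An asparagine synthetase (GRMZM2G078472), which makes asparagine for nitrogen transport, had 128 and 120 CPM in W22 leaves, against 29.6 and 28.5 CPM in DH4866 leaves (log2 fold change 2.09 ± 0.07, adjusted P = 7e-14). The glutamine synthetase gene gln2 (GRMZM2G024104) had 36.5 and 37.8 CPM in W22 leaves, against 16.8 and 16.6 CPM in DH4866 leaves (1.15 ± 0.08). A nitrate reductase-like gene (GRMZM2G428027) was low in both lines, with 3.13 and 3.02 CPM in W22 leaves and 0.594 and 0.353 CPM in DH4866 leaves. The high-affinity nitrate transporter 2.5 (GRMZM2G455124), whose orthologue in Arabidopsis is induced by long nitrogen starvation, went the other way. It had 1.32 and 1.44 CPM in W22 leaves, against 14.3 and 13.6 CPM in DH4866 leaves, a log2 fold change of -3.33 ± 0.13 (adjusted P = 1.3e-12).

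Several defence transcripts were higher in W22 leaves. Of 44 pathogenesis-related, chitinase and glucanase genes, 6 were higher and 2 lower, with a median of 0.22. The chitinase chiI (GRMZM2G145461) had 93.4 and 89.5 CPM in W22 leaves, against 28.8 and 26.4 CPM in DH4866 leaves (1.73 ± 0.07, adjusted P = 1.5e-12). The maize proteinase inhibitor MPI (GRMZM2G028393), which acts against insect digestive enzymes, had 81.3 and 85.8 CPM in W22 leaves, against 24.3 and 25.6 CPM in DH4866 leaves (1.74 ± 0.07). A basic endochitinase (GRMZM2G099454) differed less, by 1.07 ± 0.07. The lower genes, a thaumatin-like protein (GRMZM2G100747) and chitinase 1 (GRMZM2G358153), had at most 20 counts in any of the 4 libraries. Chitinase 1 had 0 and 0 counts in W22 leaves against 6 and 4 in DH4866 leaves, so no fold is given. The call of the thaumatin-like gene was lost without W22 replicate 1 (log2 fold change -1.81, adjusted P = 0.12) or DH4866 replicate 2 (-2.63, adjusted P = 0.056), and that of chitinase 1 without W22 replicate 2 (adjusted P = 0.051).

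Of 32 jasmonate and lipoxygenase genes, 3 were higher and 1 lower, with 1 higher left without DH4866 replicate 2. The lipoxygenase GRMZM2G109130, annotated as a linoleate 9S-lipoxygenase, which starts the oxylipin pathway from linoleic acid, stood out. It had 2201 and 2310 counts in W22 leaves, against 68 and 84 counts in DH4866 leaves, a log2 fold change of 4.90 ± 0.11 (adjusted P = 5.7e-16). The lipoxygenase GRMZM2G106748 differed by 1.01 ± 0.09, and its fold fell under the limit without W22 replicate 1 (0.92) or DH4866 replicate 2 (0.99). A further lipoxygenase (GRMZM2G070092) was lower, with 1.09 and 1.17 CPM in W22 leaves against 3.33 and 3.75 CPM in DH4866 leaves. Of 13 terpene synthesis genes, 2 were higher and 1 lower. The lower one, the copalyl diphosphate synthase gene an2 (GRMZM2G044481), had 0 and 1 counts in W22 leaves against 5 and 4 in DH4866 leaves. Its call (adjusted P = 0.029) was lost without W22 replicate 1 (adjusted P = 0.2), DH4866 replicate 1 (adjusted P = 0.12) or DH4866 replicate 2 (adjusted P = 0.055), and with DESeq2 (adjusted P = 0.19). The terpene synthases TPS2 and TPS3, which form volatile terpenes released by damaged leaves, were the higher ones. TPS2 (GRMZM2G046615) had 59.8 and 62.5 CPM in W22 leaves, against 23.6 and 24.8 CPM in DH4866 leaves (1.34 ± 0.06). TPS3 (GRMZM2G064406) had 33.2 and 30.3 CPM in W22 leaves, against 14.3 and 15.1 CPM in DH4866 leaves (1.12 ± 0.07).

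Benzoxazinoids are indole-derived defence compounds that maize seedlings store as glucosides. They are built in steps encoded by bx1 to bx9, and of 16 list members 3 were higher and 1 lower in W22 leaves. Without W22 replicate 1 there were 2 lower, and 0 without any of the other 3 libraries. At an adjusted P below 0.05 with no fold limit 8 were higher and 3 lower, against 4356 higher and 4322 lower of all 25436 genes. The first step, bx1 (GRMZM2G085381), had 1590 and 1650 CPM in W22 leaves, against 987 and 1030 CPM in DH4866 leaves (0.69 ± 0.04, adjusted P = 6.4e-10), below the fold limit. The second, bx2 (GRMZM2G085661), had 16.3 and 15.4 CPM in W22 leaves, against 5.94 and 5.70 CPM in DH4866 leaves (1.44 ± 0.09). An indole-3-glycerol phosphate lyase (GRMZM2G015892), an enzyme of the same kind as BX1, was a DEG as well, with 113 and 111 CPM against 51.5 and 47.7 CPM. The later steps differed less. The log2 fold changes were 0.25 for BX3 (GRMZM2G167549), 0.28 for BX4 (GRMZM2G172491) and 0.30 for BX5 (GRMZM2G063756). The glucosyltransferase genes bx8 (GRMZM2G085054) and bx9 (GRMZM2G161335) had 0.09 and -0.11. igl1 (GRMZM2G046191), which releases free indole, had 0.46 ± 0.24 (adjusted P = 0.16), and TSA (GRMZM5G841619), the tryptophan synthase alpha subunit, 0.02 ± 0.06. An indole-2-monooxygenase-like gene (GRMZM2G384884) had 4.53 and 3.79 CPM in W22 leaves, against 7.22 and 8.26 CPM in DH4866 leaves (-0.89 ± 0.13), and passed the fold limit without W22 replicate 1 (-1.03, adjusted P = 0.0002). A gene described as a glucoside beta-glucosidase 2-like protein (GRMZM2G077015) had 25.4 and 25.2 CPM in W22 leaves, against 29.4 and 30.9 CPM in DH4866 leaves (-0.25 ± 0.08, adjusted P = 0.017). The other calls rested on few counts. A gene described as a benzoxazinoid glucoside beta-glucosidase (GRMZM2G120962) had 10 and 7 counts in W22 leaves and 0 in DH4866 leaves. The beta-glucosidase glu1 (GRMZM2G016890) had 16 and 7 counts in W22 leaves against 27 and 22 in DH4866 leaves, and its call was lost without W22 replicate 2 (-0.60, adjusted P = 0.38) or either DH4866 replicate (-0.89 and -1.23), and with DESeq2 (adjusted P = 0.28).

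Flavonoid genes were split, with 4 higher and 6 lower of 59 and a median of -0.21. The chalcone synthase gene whp1 (GRMZM2G151227), which opens the flavonoid pathway, had 45.1 and 41.9 CPM in W22 leaves, against 16 and 15.5 CPM in DH4866 leaves (1.47 ± 0.10, adjusted P = 2.6e-09). r1 (GRMZM5G822829), the bHLH regulator of anthocyanin colour, had 16.9 and 18.1 CPM in W22 leaves, against 6.03 and 6.31 CPM in DH4866 leaves (1.5 ± 0.12). Both are among the 11 core anthocyanin genes tested, of which 2 were higher and 0 lower. A leucoanthocyanidin reductase (GRMZM2G097841), which leads towards catechins, was higher by 1.6 ± 0.07. A flavonol 4-sulfotransferase (GRMZM2G152179) was lower, with 1.22 and 0.812 CPM in W22 leaves against 7.86 and 6.71 CPM in DH4866 leaves (-2.83 ± 0.17). UDP-glycosyltransferases, which attach sugars to such compounds, had 2 higher and 9 lower of 78, with 1 higher without W22 replicate 1. The most expressed of the higher genes, a cyanidin glucosyltransferase-like gene (GRMZM2G363554), had 59.1 and 53.5 CPM in W22 leaves, against 20.1 and 16 CPM in DH4866 leaves.

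Among cytochrome P450s 7 were higher and 10 lower of 140, and among glutathione S-transferases 3 and 4 of 43. For glutathione S-transferases the counts were 1 higher without DH4866 replicate 2 and 2 lower without DH4866 replicate 1. The P450 GRMZM2G015542 had 39.0 and 41.1 CPM in W22 leaves, against 7.95 and 8.08 CPM in DH4866 leaves (2.32 ± 0.09). GST26 (GRMZM2G363540) had 2.77 and 2.75 CPM in W22 leaves, against 11.8 and 13 CPM in DH4866 leaves (-2.17 ± 0.12). NBS-LRR genes were evenly divided, with 5 higher and 5 lower of 38, but 2 were higher without W22 replicate 2 or without DH4866 replicate 2. An RGA1-like gene (GRMZM2G356817) had 34.1 and 34.9 CPM in W22 leaves, against 9.23 and 11.2 CPM in DH4866 leaves (1.76 ± 0.11). An RPP13-like gene (GRMZM2G443939) had 7.12 and 6.45 CPM in W22 leaves, against 21 and 23.8 CPM in DH4866 leaves (-1.72 ± 0.10). The neighbouring identifiers AC152495.1_FG010 and AC152495.1_FG017, also NBS-LRR genes, had log2 fold changes of -1.85 and -1.82. Of 332 receptor-like kinases, 20 were higher and 23 lower, or 13% together. These families hold many similar copies, between which the estimated counts divide reads.

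**Figure D3:**
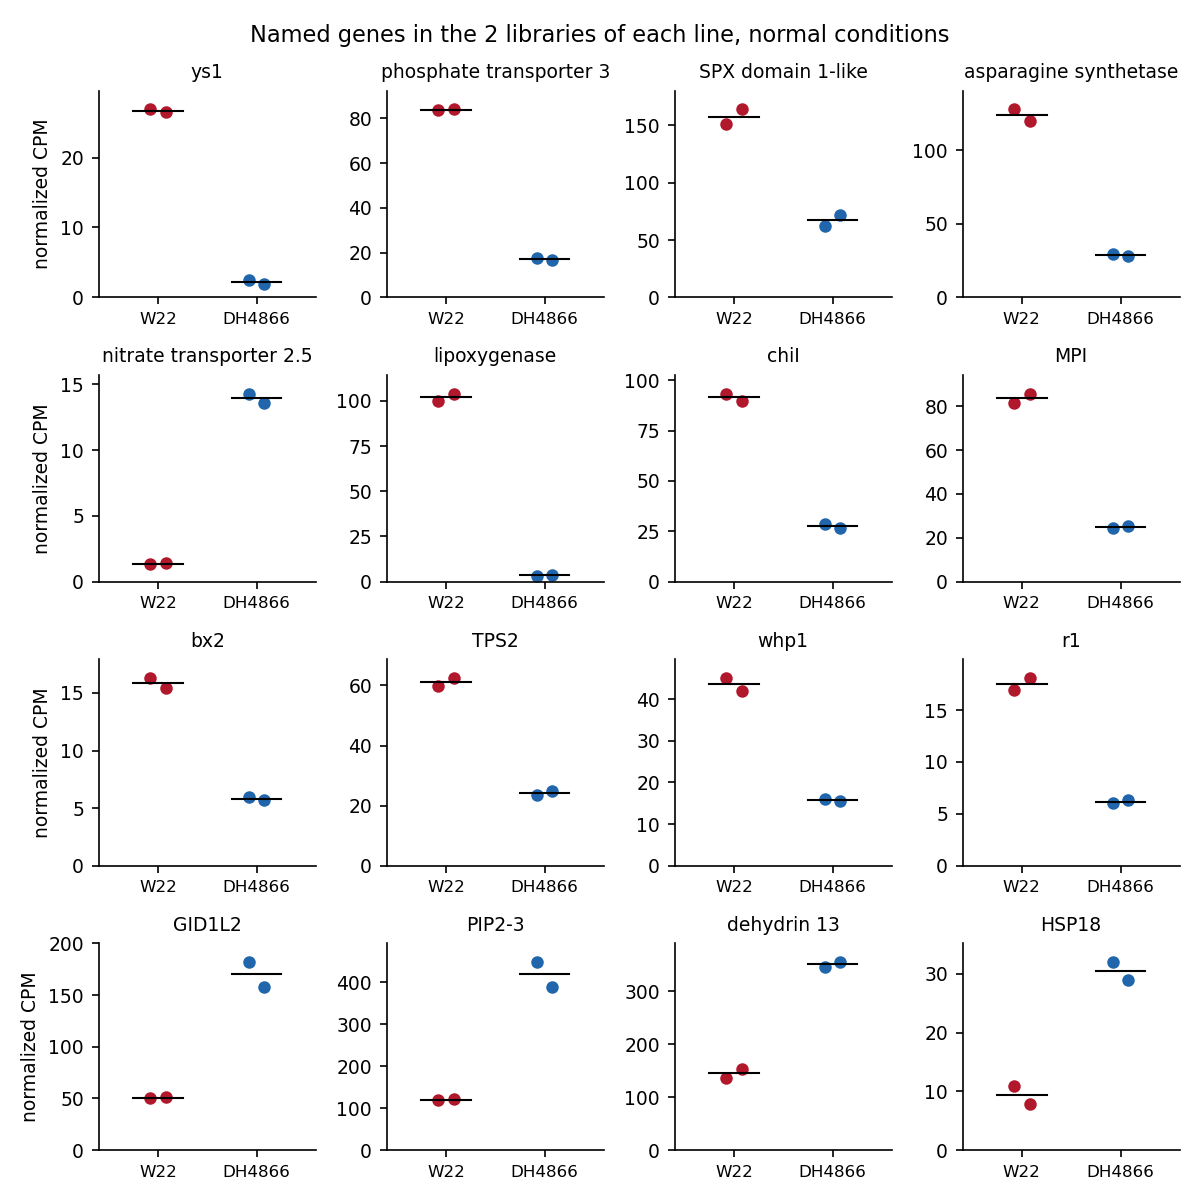
Points give normalized CPM in each of the 2 libraries of W22 (red, left) and of DH4866 (blue, right) for 16 named genes, and lines mark the means. The 16 genes were picked among the DEGs of these same libraries, so the gap between the lines in each panel follows from that choice. Of them, 11 were higher in W22 leaves and 5 lower.

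Of 63 gibberellin and cytokinin genes, 2 were higher in W22 leaves and 8 lower, and of 85 auxin genes 2 were higher and 8 lower. The list medians were 0.02 and 0.03. Without W22 replicate 1 the gibberellin and cytokinin list had 1 higher, and without DH4866 replicate 1 the auxin list had 5 lower. Members described as gibberellin receptor GID1L2, a family related to carboxylesterases, led the lower genes. GRMZM2G128219 had 50.6 and 51.1 CPM in W22 leaves, against 182 and 158 CPM in DH4866 leaves (-1.74 ± 0.09, adjusted P = 4.8e-11). GRMZM2G049675 and GRMZM2G156310 had log2 fold changes of -2.15 and -1.35. A gibberellin 2-beta-dioxygenase (GRMZM2G031432), which inactivates gibberellin, was higher, with 30 and 28 counts in W22 leaves against 2 and 11 in DH4866 leaves. Ethylene genes were 3 higher and 3 lower of 16. acs7 (GRMZM5G894619), which makes the ethylene precursor ACC, had 2.22 and 1.40 CPM in W22 leaves, against 4.98 and 4.86 CPM in DH4866 leaves (-1.44 ± 0.18). The 3 higher ethylene genes were ACC oxidases with at most 39 counts in W22 leaves, and the call of GRMZM2G013448 was lost without W22 replicate 1 (2.32, adjusted P = 0.21) or DH4866 replicate 2 (2.30, adjusted P = 0.12), and with DESeq2 (adjusted P = 0.11). Of 75 abscisic acid genes, 2 were higher and 2 lower, counts that ranged from 1 to 3 and from 1 to 2 as each library was left out.

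Water channels and protective proteins differed in a few abundant members. Of 30 aquaporins, 3 were higher and 3 lower, with 5 higher without DH4866 replicate 1. PIP2-3 (GRMZM2G081192), a plasma membrane water channel, had 120 and 121 CPM in W22 leaves, against 448 and 389 CPM in DH4866 leaves (-1.79 ± 0.08, adjusted P = 2.6e-12). PIP2-6 (GRMZM2G047368) was higher, with 4.85 and 6.14 CPM in W22 leaves against 1.83 and 1.5 CPM in DH4866 leaves (1.72 ± 0.20). Dehydrins bind water and membranes in drying cells. Dehydrin 13 (GRMZM2G169372) had 137 and 154 CPM in W22 leaves, against 346 and 355 CPM in DH4866 leaves (-1.27 ± 0.06). Heat shock genes were 0 higher and 5 lower of 60, with a median of -0.06. HSP18 (GRMZM2G404249) had 11.0 and 7.85 CPM in W22 leaves, against 32 and 28.9 CPM in DH4866 leaves (-1.69 ± 0.12), and the chaperone gene hsp82 (GRMZM5G833699) had 8.80 and 9.34 CPM against 23.4 and 23.5 CPM (-1.37 ± 0.09). The phospholipid transfer protein gene plt2 (GRMZM2G010868), which belongs to the lipid transfer proteins of the leaf surface, had 133 and 136 CPM in W22 leaves, against 609 and 567 CPM in DH4866 leaves (-2.13 ± 0.06). Wax and lipid transfer genes were 0 higher and 3 lower of 28, with 1 to 2 lower as each library was left out.

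Photosynthesis genes held DEGs at shares not far from that of all genes. Of 53 light-harvesting and photosystem genes, 2 were higher and 1 lower (5.66%), and of 15 C4 cycle genes 1 was higher (6.67%). The share was 8.45% over all genes and 3.96% among genes with at least 100 CPM. Both higher photosystem genes also belong to the list of transcripts described as plastid-encoded below, so they are counted in both lists. As each library was left out, 0 to 1 photosystem genes and 0 C4 genes were higher. The lower gene was a photosystem I reaction center subunit XI (GRMZM2G094224), with 8.07 and 6.90 CPM in W22 leaves, against 396 and 324 CPM in DH4866 leaves (-5.59 ± 0.12, adjusted P = 5.7e-16). In the other libraries it was well expressed in the W22 background too, with 445 and 369 CPM in zmnf-ya1 leaves and 1940 and 1860 CPM in W22 drought leaves. Transcripts described as plastid-encoded, a list chosen after values were seen, held 2060 and 2190 CPM in W22 leaves, against 1050 and 1240 CPM in DH4866 leaves. Of its 64 tested genes, 13 were higher and 1 lower, with a median of 0.63. Under drought 2 were higher and 23 lower in W22 over DH4866, with a median of -0.85. The lower one, GRMZM2G079440, bears the dehydrin name dhn1 in RefSeq and had 2.99 and 3.02 CPM in W22 leaves, against 6.90 and 7.33 CPM in DH4866 leaves.

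The 176 cytosolic ribosomal protein genes lay mostly below 0. Their median log2 fold change was -0.45, against 0.00 over all genes tested, and 157 lay below 0 and 17 above. At an adjusted P below 0.05 with no fold limit, 121 were lower in W22 leaves and 4 higher, against 4322 lower and 4356 higher of all 25436 genes. Past the fold limit there were 1 higher and 5 lower (2 higher without DH4866 replicate 2). Under drought the median of W22 over DH4866 was 0.21. In normal leaves of zmnf-ya1 over ZmNF-YA1 OE the median was -0.06, so the shift was not seen in those libraries of the same backgrounds. Their summed level was 2580 and 2590 CPM in W22 leaves, against 3490 and 3570 CPM in DH4866 leaves. The 40S ribosomal protein S24 gene GRMZM2G171426 had 19.5 and 20.5 CPM in W22 leaves, against 56.0 and 52.3 CPM in DH4866 leaves (-1.44 ± 0.08).

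In starch and sugar metabolism 2 of 73 genes were higher and 6 lower, with 1 higher without W22 replicate 2 or either DH4866 replicate. The beta-amylases, which degrade starch to maltose, were split. GRMZM5G803981 had 226 and 224 CPM in W22 leaves, against 70.8 and 67.5 CPM in DH4866 leaves (1.70 ± 0.07), while GRMZM2G025833 had 72.4 and 78.2 CPM against 186 and 170 CPM (-1.24 ± 0.07). The vacuolar invertase gene ivr2 (GRMZM2G089836) had 312 and 283 CPM in W22 leaves, against 659 and 547 CPM in DH4866 leaves (-1.02 ± 0.09). Its fold fell under the limit without W22 replicate 2 (-0.95) or DH4866 replicate 1 (-0.88). The stay-green gene SGR1 (GRMZM2G103881), which removes magnesium from chlorophyll during breakdown, had 29.7 and 30.0 CPM in W22 leaves, against 8.72 and 7.33 CPM in DH4866 leaves (1.90 ± 0.10). It was the only DEG of 6 chlorophyll breakdown genes.

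Among transcription factors, MYB genes were 13 higher and 7 lower of 140, with 4 lower without DH4866 replicate 1. GLK5 (GRMZM2G016370), a G2-like factor, had 106 and 106 CPM in W22 leaves, against 31.3 and 28.1 CPM in DH4866 leaves (1.83 ± 0.07). MYB42 (GRMZM2G419239), a repressor of lignin genes, had 8.30 and 9.02 CPM in W22 leaves, against 21.8 and 21 CPM in DH4866 leaves (-1.30 ± 0.10). NAC genes were 1 higher and 4 lower of 67, and AP2/ERF genes 4 higher and 8 lower of 108. Without W22 replicate 2 these were 2 higher NAC genes and 5 lower AP2/ERF genes. Of the 17 tested genes described as NF-Y subunits, 2 were higher and 0 lower, and 0 to 1 were higher as each library was left out. ZmNF-YA1 (GRMZM2G000686), which has no such description and is not among the 17, had 12.6 and 13.4 CPM in W22 leaves, against 10.8 and 10.9 CPM in DH4866 leaves, a log2 fold change of 0.26 ± 0.09 (adjusted P = 0.035) that is below the fold limit. ZmNF-YA7 (GRMZM2G040349) had 0.12 ± 0.20 (adjusted P = 0.71). ZmNF-YC17 (GRMZM2G311316) had 5.80 and 5.50 CPM in W22 leaves, against 3.06 and 2.56 CPM in DH4866 leaves (1.01 ± 0.28, adjusted P = 0.0085). This call was lost without W22 replicate 1 (0.97) or DH4866 replicate 2 (0.89), and with DESeq2 (1.00, adjusted P = 0.052).

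The 17 circadian clock genes bear on the time of harvest, which is not given in the sources used here. None passed both thresholds, and their log2 fold changes ranged from -0.85 to 0.41 with a median of -0.12. The morning genes described as LHY had 583 and 594 CPM in W22 leaves against 502 and 533 CPM in DH4866 leaves for GRMZM2G014902 (0.19 ± 0.05), and 227 and 217 CPM against 287 and 307 CPM for GRMZM2G474769 (-0.42 ± 0.06, adjusted P = 1.8e-05). The evening gene GI (GRMZM2G107101) had 150 and 154 CPM in W22 leaves, against 170 and 185 CPM in DH4866 leaves (-0.22 ± 0.07). The pseudo-response regulator genes described as PRR37, GRMZM2G004483 and GRMZM2G005732, had 0.07 and 0.14. An ELF4-like gene (GRMZM5G877647) had the widest difference, with 3.31 and 3.88 CPM in W22 leaves against 7.35 and 5.61 CPM in DH4866 leaves (-0.85 ± 0.15). It passed the fold limit without DH4866 replicate 2 (-1.03, adjusted P = 0.00011). At an adjusted P below 0.05 with no fold limit, 1 clock gene was higher and 4 were lower. The members described as ZGT, GRMZM2G005630 and GRMZM2G031139, had identical values in the 4 libraries, so their reads could not be told apart.

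The largest differences among genes above 3 counts in all 4 libraries included genes with no described function. On the higher side were the uncharacterized GRMZM2G100360, with 12.1 and 12.3 CPM in W22 leaves against 0.228 and 0.309 CPM in DH4866 leaves (5.47), GRMZM2G383623 (5.40), and the lipoxygenase above. They were followed by a xylem cysteine proteinase 1-like gene (GRMZM2G049882), with 12.1 and 13.7 CPM in W22 leaves against 0.365 and 0.530 CPM in DH4866 leaves (4.83). A plastid NADH-plastoquinone oxidoreductase subunit J transcript (GRMZM2G404025) varied between replicates, with 61.0 and 36.5 CPM in W22 leaves, against 2.01 and 1.59 CPM in DH4866 leaves (4.76), and was not called by DESeq2 (adjusted P = 0.34). On the lower side, after the photosystem I subunit, were GRMZM2G080487 (-5.17) and a gene described as a phosphatase (GRMZM2G033787). The latter had 1.45 and 1.31 CPM in W22 leaves against 44 and 39.8 CPM in DH4866 leaves (-4.92). GRMZM2G068763 (-4.67) and AC197387.3_FG004 (-4.62) closed this group, both described as hypothetical proteins. In normal leaves of zmnf-ya1 over ZmNF-YA1 OE the phosphatase gene did not keep its sign (0.73). It had 55.3 and 48.2 CPM in those zmnf-ya1 leaves. The photosystem I subunit had -0.83 there, GRMZM2G080487 -1.37, GRMZM2G068763 -2.88 and AC197387.3_FG004 -2.62.

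Of the DEGs with most reads, named here after their values were seen, a peptidyl-prolyl cis-trans isomerase-like gene (GRMZM2G162388) had 1770 and 1620 CPM in W22 leaves, against 133 and 127 CPM in DH4866 leaves (3.70 ± 0.08). Such enzymes help proteins fold. Under drought the order was turned, with 57.3 and 55.6 CPM in W22 leaves against 1550 and 1480 CPM in DH4866 leaves. Glucose-6-phosphate/phosphate translocator 2 (GRMZM2G009223), which carries sugar phosphate across the plastid envelope, had 1140 and 1130 CPM in W22 leaves, against 538 and 455 CPM in DH4866 leaves (1.2 ± 0.08). The sorbitol dehydrogenase gene sdh1 (GRMZM2G175423) had 82.9 and 86.1 CPM in W22 leaves, against 522 and 467 CPM in DH4866 leaves (-2.55 ± 0.07).

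Genes on in 1 line only were those with at least 100 counts in both libraries of it and at most 3 in both of the other. There were 10 such genes on in W22 leaves and 13 on in DH4866 leaves. A nucleoredoxin 3-like gene (GRMZM2G456547), of the thioredoxin fold, had 408 and 442 counts in W22 leaves and 0 and 0 in DH4866 leaves, at least 143-fold higher against a floor of 3 counts per library. An eIF3E-like translation initiation factor (GRMZM2G038028) had 164 and 181 counts in W22 leaves and 0 and 0 in DH4866 leaves, at least 57.9-fold higher. A U3 small nucleolar RNA-associated protein 11 gene (GRMZM2G076613), which serves ribosomal RNA processing, had 347 and 329 counts in W22 leaves against 3 and 1 in DH4866 leaves. A CBL-interacting protein kinase 14-like gene (GRMZM2G156150), of a family of calcium-regulated kinases, had 215 and 212 counts in W22 leaves against 3 and 3 in DH4866 leaves. An MTA/SAH nucleosidase gene (GRMZM5G896883), which recycles methionine by-products, had 143 and 142 counts in W22 leaves against 3 and 0 in DH4866 leaves. On in DH4866 were an LRR receptor kinase (GRMZM2G439799), with 1 and 1 counts in W22 leaves against 101 and 122 in DH4866 leaves, and an actin-depolymerizing factor 2-like gene (GRMZM2G108807), with 0 and 0 counts against 111 and 119. A gene of the ribosomal protein S4 family (AC205886.3_FG001) had 0 and 1 counts in W22 leaves, against 126 and 154 in DH4866 leaves.

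These on and off states rarely marked the background across both conditions. In normal leaves of zmnf-ya1 over ZmNF-YA1 OE, 10 of the 10 W22 genes and 10 of the 13 DH4866 genes were DEGs in the same direction. Of all genes, 8.9% were higher there and 9% lower. In drought leaves of W22 over DH4866, 0 of the 10 and 1 of the 13 were, where 6.65% of all genes were higher and 6.22% lower. Only 2 of the 10 W22 genes were at the floor in all 8 DH4866-background libraries, and 1 of the 13 DH4866 genes in all 8 W22-background libraries. The nucleoredoxin gene GRMZM2G456547 had 242 and 236 counts in W22 drought leaves and 410 and 405 in DH4866 drought leaves. The receptor kinase GRMZM2G439799 had 95 and 87 counts in W22 drought leaves and 101 and 90 in DH4866 drought leaves. Under drought 5 of the 10 W22 genes had at least 20 counts in both DH4866 libraries, and 7 of the 13 DH4866 genes in both W22 libraries. GRMZM2G420870, named after its values were seen, had 0 and 1 counts in W22 leaves against 1517 and 1545 in DH4866 leaves, but 468 and 446 counts in zmnf-ya1 leaves.

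**Figure D4:**
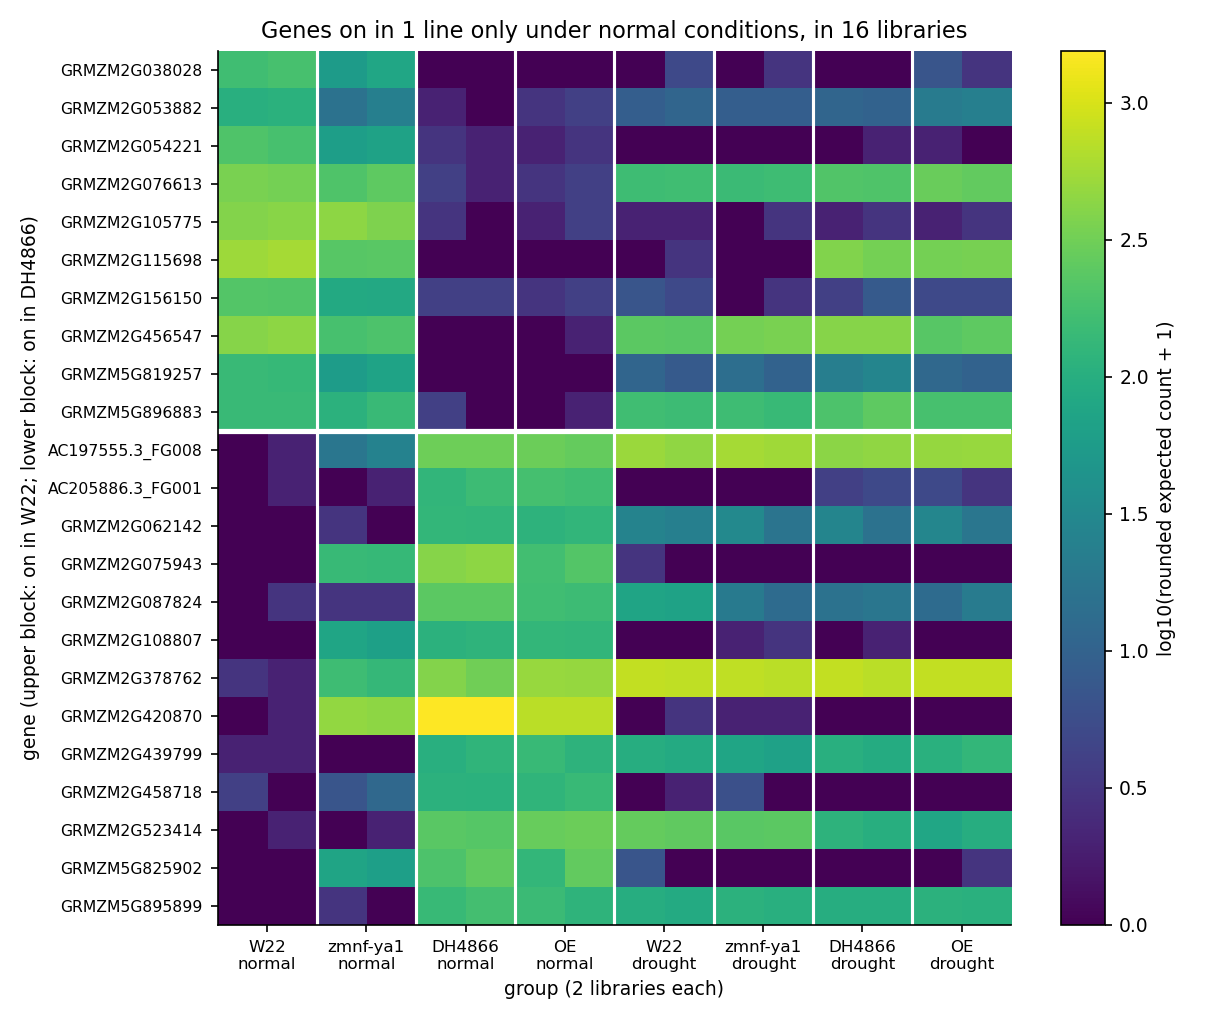
Rows are the 10 genes on in W22 leaves (upper block) and the 13 on in DH4866 leaves (lower block) under normal conditions, columns are the 16 libraries by group, and colour gives log10 of the rounded expected count plus 1. The blocks differ between the W22 and DH4866 columns under normal conditions, while most genes have a like level in all 8 drought libraries.

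The 2150 DEGs were followed in libraries that the comparison did not use. In normal leaves of zmnf-ya1 over the libraries labelled ZmNF-YA1 OE, which carry the same backgrounds but differ also at ZmNF-YA1, 4553 of 25436 genes were DEGs (17.9%), 8.9% higher and 9% lower. There 1113 genes were DEGs in the same direction, 51.8% of the 2150 and 24.4% of the 4553, and 57 (2.65% of the 2150) in the opposite one. Of the 2150, 85.3% had the same sign. In drought leaves of W22 over DH4866, 3272 genes were DEGs (12.9%), 6.65% higher and 6.22% lower. There 245 genes were DEGs in the same direction, 11.4% of the 2150 and 7.49% of the 3272, and 344 in the opposite one, 16% and 10.5%. Of the 2150, 42.6% had the same sign. The difference between normal and drought conditions in the log2 fold change of W22 over DH4866 was tested in the same fit, and 1554 of the 2150 (72.3%) had an adjusted P below 0.05. Over all genes tested this share was 42.8%, but the 2150 were chosen by a term of that difference, so the shares are a description. The comparisons share no libraries with the unstressed wild types.

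**Figure D5:**
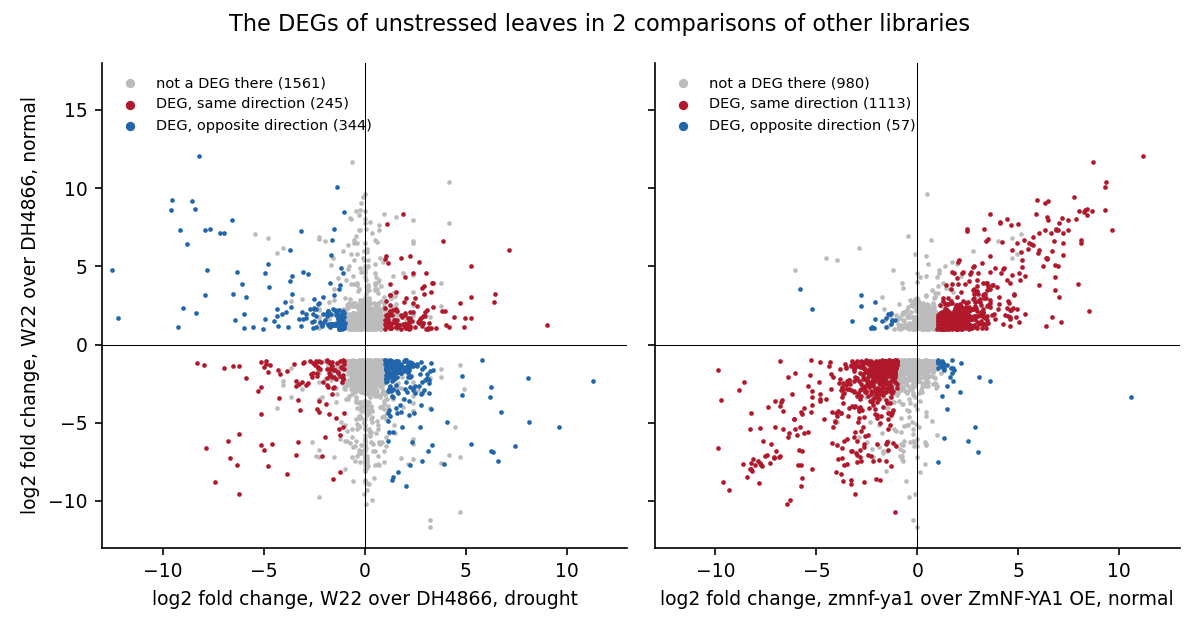
Each point is 1 of the 2150 DEGs, with its log2 fold change of W22 over DH4866 under normal conditions on the y axis, and on the x axis that under drought (left) or that of zmnf-ya1 over ZmNF-YA1 OE under normal conditions (right). Red points are DEGs in the same direction there (245 and 1113) and blue points in the opposite one (344 and 57).

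Single genes followed both patterns. ys1 kept its sign in zmnf-ya1 over ZmNF-YA1 OE leaves with a log2 fold change of 3.60, phosphate transporter 3 with 2.83, asparagine synthetase with 3.16 and the lipoxygenase GRMZM2G109130 with 3.85. Under drought the first 3 genes had 0.58, 0.83 and 0.72 for W22 over DH4866, and the lipoxygenase -1.18. Phosphate starvation genes were 7 higher and 0 lower of 14 in zmnf-ya1 over ZmNF-YA1 OE leaves, and 2 higher and 1 lower, with a median of 0.14, in W22 over DH4866 leaves under drought. PIP2-3 had 526 and 499 CPM in W22 drought leaves, against 119 and 111 CPM in DH4866 drought leaves, the turned order of unstressed leaves. In all 4 comparisons, drought leaves of zmnf-ya1 over ZmNF-YA1 OE included (2946 DEGs, 11.6% of genes, with 4.97% higher and 6.62% lower), 70 genes were DEGs in the same direction, 31 higher and 39 lower. Named after their values were seen, they included a glucan endo-1,3-beta-glucosidase 13-like gene (GRMZM2G431039), with 1.40, 1.55, 1.43 and 1.33 for normal wild types, drought wild types, normal lines and drought lines in turn. chiI had 1.73, 5.28, 1.47 and 4.51, and a cellulase-type gene (GRMZM2G147221) had 2.27, 1.56, 2.63 and 1.26. r1 had 1.5, 2.69, 1.32 and 1.16. Yucca6 (GRMZM2G019515), of the flavin monooxygenases that make auxin, had -1.43, -2.33, -1.18 and -3.25.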

How the data were processed

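Leaf RNA of the libraries labelled W22 and DH4866 was sequenced. For the W22 background, the authors filtered reads with SOAPnuke, aligned them with Bowtie2 to maize B73 V3 gene models and estimated expected counts and FPKM with RSEM. For the DH4866 background the processing is not given in the sources used here, and its tables have the same layout, gene IDs and columns. The deposited tables hold expected counts and FPKM for each library, with no gene under an FPKM of 0.01. RSEM divides reads between similar genes. A gene missing from a table was taken as 0 counts, and expected counts were rounded. Of 35105 genes listed in the 16 libraries of both backgrounds, 25436 passed filterByExpr. Names came from the deposited descriptions, and 18349 genes were matched by ID to RefSeq (assembly Zm-B73-REFERENCE-NAM-5.0, used for names alone).

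The 16 libraries, 8 groups of 2, were fitted together in edgeR 4.0.16 (R 4.3.3) with TMM and the quasi-likelihood test, and the contrast was W22 minus DH4866 under normal conditions. The common biological coefficient of variation was 5.18%. Each standard error was derived as the absolute log2 fold change over the square root of the test's F statistic, and was not returned by the fit. It is approximate, and unreliable for genes at 0 counts in a group. The chi-square per degree of freedom between replicate counts was 2.191 in W22 and 3.742 in DH4866, above that of sampling noise. Replicates are separate libraries by label, and P-values measure the spread between them, which may be technical. An exact permutation of 2 against 2 cannot go below 0.333, so only tests that share spread across genes were used. The replicate numbers are shared by label only.

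The members and lists were chosen with earlier results of these data known. The rule for named genes took up to 6 most expressed described genes on in 1 line only per direction. It took up to 3 DEGs of highest mean CPM per list and direction, and every clock and benzoxazinoid gene. It also took the NF-Y subunits named by the study, and the 5 largest DEGs per direction with more than 3 counts in all 4 libraries. The text gives only part of these genes, also of the clock and benzoxazinoid lists. ZmNF-YB16 is not reported here. Alternatives were DESeq2 1.42.0, limma 3.58.1 on log2(FPKM + 1) with an FPKM of at least 0.5 in 2 libraries, RLE or library size scaling, no filter, an adjusted P of at most 0.001, a replicate block, the 4 normal libraries alone, other limits for genes on in 1 line, and each library left out. The fit was tested on simulated data. Tables and plots were made in Python 3.11.15 by pandas 2.3.3, numpy 2.4.6 and matplotlib 3.10.9. No genome coordinates or sequences are given.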

Additional observations from a re-analysis of the deposited data

Results flagged for a closer look

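Some genes described above were DEGs in opposite directions in unstressed and drought leaves, and the difference between the log2 fold changes of W22 over DH4866 (normal minus drought) was tested by a contrast in edgeR's quasi-likelihood fit, adjusted over all genes. The genes were chosen after their values were seen, as DEGs in opposite directions, so a large difference was fixed by the choice. The differences and adjusted P-values below are therefore a description and no added support. Differences below 0 mark genes lower in W22 than in DH4866 in unstressed leaves and higher under drought. The aquaporin PIP2-3 (GRMZM2G081192) had -3.94 ± 0.11 (SE, adjusted P = 6.1e-15), from -1.79 in unstressed and 2.15 in drought leaves. The GID1L2 gene GRMZM2G128219 had -3.88 ± 0.13, the dehydrin-named GRMZM2G079440 -3.82 ± 0.23 and the flavonol sulfotransferase GRMZM2G152179 -4.83 ± 0.23. Chitinase 1 (GRMZM2G358153) had -7.12 ± 1.38 (adjusted P = 0.00044) and the thaumatin-like GRMZM2G100747 -5.14 ± 1.09 (adjusted P = 0.00087), both on few counts. Chitinase 1 was at 0 counts in both unstressed W22 libraries, so its value depends on the fit and is no bound.

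Differences above 0 mark genes higher in W22 in unstressed leaves and lower under drought. The isomerase GRMZM2G162388 had 8.45 ± 0.12 (adjusted P = 9.3e-19), from 3.70 in unstressed and -4.75 in drought leaves. The lipoxygenase GRMZM2G109130 had 6.07 ± 0.17 and the translocator GRMZM2G009223 had 5.49 ± 0.12. The ACC oxidase GRMZM2G013448 had 4.70 ± 1.00 (adjusted P = 0.00093). whp1 (GRMZM2G151227) had 3.67 ± 0.14. GLK5 (GRMZM2G016370) and the beta-amylase GRMZM5G803981 both had 3.05, with standard errors of 0.11 and 0.10. The plastid transcript GRMZM2G404025 had 17.27 ± 1.62 (adjusted P = 5e-07), but it was at 0 counts in both W22 drought libraries, so this value depends on the fit and is no bound.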

How the results depend on the processing

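The counts of DEGs moved most with a stricter threshold and with limma on FPKM, which differs in tool, unit and filter together. At an adjusted P of at most 0.001 there were 1308 DEGs (591 higher and 717 lower in W22 leaves) and 2156 under drought. limma on log2(FPKM + 1) gave 838 (399 higher, 439 lower) of 24717 tested, 1384 under drought, and 2111 for zmnf-ya1 over ZmNF-YA1 OE. DESeq2 gave 1592, RLE scaling 2152, library size 2154, no filter 2225 and the 4 normal libraries alone 1985. As each library was left out there were 1916 to 2080 DEGs, 845 to 884 higher and 1046 to 1196 lower. The replicate block gave 2178 DEGs (958 higher, 1220 lower), 3314 under drought and 4581 for zmnf-ya1 over ZmNF-YA1 OE. For the last contrast library size scaling gave 6480 DEGs, against 4553 in the main fit. The normal zmnf-ya1 libraries had TMM factors of 0.7809 and 0.8305, and the other libraries 0.9437 to 1.137. The replicate numbers pair nothing that the labels describe, and the deviations of same-numbered libraries correlated at 0.012. Under the alternatives, 38.5% (limma) to 99.5% (library size) of the 2150 DEGs stayed DEGs, and 0 turned direction. Over all genes the median stayed between -0.003 and 0.002 on the log2 scale. Of 191 named DEGs, 87 missed a threshold in at least 1 setting and 0 turned direction, and the replicate block ended 2 calls. Genes on in W22 leaves alone numbered 19 with at most 10 counts allowed in DH4866 and 20 with a minimum of 50 counts, and genes on in DH4866 alone 33 with that minimum. As each library was left out these were 10 to 14 and 14 to 15. Of 1032 list counts under an alternative, 824 were within 1.5 times the reported one and 208 were not. The cause of these changes was not tested. With 2 libraries of each line, low genes had the widest errors.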
